A study of Mus musculus with 5 samples.

Results

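The long 3′ untranslated region (3′ UTR) intervals of cardiac fibroblasts (CF), those of 3000 bases or more, were described here. They were taken by length alone from the deposited SLAMseq tables, after rows that repeat an interval were dropped. Of 40428 distinct intervals, 4441 were this long, from 2880 gene names, and the 23171 longer than 300 and shorter than 3000 bases, called middle-length intervals below, served for comparison. CF had been isolated from hearts of adult healthy male C57Bl/6J wildtype mice by collagenase perfusion and grown to confluency. In 3 labeled libraries the cells had been given 0.1 mM 4-thiouridine (S4U), a uridine analog, for 12 h, and in 2 unlabeled libraries they had been kept in parallel without it. RNA of all 5 libraries was alkylated, so the unlabeled libraries show the background of the chemistry and the sequencing. Each library came from a preparation grown in 2 wells, and the cells were cultured outside the heart. The p-values below rest on the spread between these libraries. The limma and edgeR tests used below share that spread, in part or wholly, between intervals or genes.

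SLAMseq reads newly made RNA without separating it from older RNA. S4U that is built into a transcript during the labeling time is alkylated and then sequenced as C where the genome has T. The T>C rate, that is the conversions divided by the T positions covered by reads, therefore rises with the share of a transcript's molecules made in those hours. The 3′ UTR is the part of an mRNA between the stop codon and the poly(A) tail. Long 3′ UTRs offer more room for sites of RNA-binding proteins and microRNAs, and many genes choose between nearer and farther poly(A) sites. The libraries here were made from the 3′ ends of mRNAs, and a transcript is read near its end rather than along its length.

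Since 3′-end libraries are read near the poly(A) site, the hexamers close to the interval ends are shown first. Each line is read on the strand of the transcript from GRCm39, with AATAAA or ATTAAA, the main polyadenylation signals, in capitals. The first 3 belong to long intervals of low T>C rate, the next 3 to long intervals of high T>C rate, and the last 3 to most read long intervals.

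Spon1, chr7:113642575-113642604, plus strand: gacaAATAAAatttgcatacataattttta
Adamts2, chr11:50698369-50698398, plus strand: acttATTAAAgtgtctgtggttttgcaaat
Lgi2, chr5:52690859-52690885, minus strand: tgtgAATAAAaagtagtaaatgcctaa
Eaf1, chr14:31231794-31231815, plus strand: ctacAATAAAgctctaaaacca
Ccn4, chr15:66795025-66795050, plus strand: aagcAATAAAtcatcagcaacagtaa
Fgf2, chr3:37464227-37464255, plus strand: tgtgAATAAAgttattctggtttcttggc
Pmepa1, chr2:173066258-173066284, minus strand: acacAATAAAttttacagttctttgga
Zbtb20, chr16:43462433-43462442, plus strand: agttATTAAA
Adamts5, chr16:85655045-85655061, minus strand: caggAATAAAaatcagt

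Either hexamer stood in the last 50 bases of 76.6% of the 4439 long intervals with sequence and of 74.3% of the 23139 middle-length intervals. Among intervals read deeply enough to judge, defined below, the shares were 86.2% of long and 84.7% of middle-length intervals. A missing match says only that these letters were not in the last 50 bases.

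Longer intervals also held more matches to microRNA seeds, with densities per kilobase that differed little from those of middle-length intervals. The let-7 family restrains growth genes, among them the Ras genes, and the miR-29 family is known for restraining matrix transcripts of fibroblasts. Their mature sequences, from RefSeq miRNA entries of GRCm38.p6, are shown with the seed in capitals, followed by matches in long intervals that the results below return to, on the transcript strand of GRCm39 with the 7-base match in capitals.

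mmu-let-7a-5p: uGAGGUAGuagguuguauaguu
Nras, chr3:102971675-102971700, plus strand: acctcttcagaataaCTACCTCctca
Igf1r, chr7:67878858-67878883, plus strand: ttttcaaacatttatCTACCTCactc
Eaf1, chr14:31231753-31231778, plus strand: tctctctccctctttCTACCTCtctt
mmu-miR-29a-3p: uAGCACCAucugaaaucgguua
Adamts2, chr11:50695779-50695804, plus strand: tgcagtttcaaaaccTGGTGCTcaaa
Ccn4, chr15:66793184-66793209, plus strand: atgcaaggcaaacagTGGTGCTtaag
Pdgfra, chr5:75357011-75357036, plus strand: accctgagaccacaaTGGTGCTgttg
Tbx20, chr9:24636198-24636223, minus strand: cagacggggcagagtTGGTGCTagta

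The miR-29 match TGGTGCT was found in 38.7% of long and 11.8% of middle-length intervals over their whole length, which came to 0.107 and 0.111 matches per kilobase. In a window of equal size, the last 300 bases, the shares were 2.88% and 3.13%. The let-7 match CTACCTC stood in 26.8% of long and 8.28% of middle-length intervals, at 0.0675 and 0.0753 per kilobase, and in 1.76% and 2.08% of the last 300 bases. Among the deeply read intervals the densities were 0.122 for long and 0.108 for middle-length intervals for miR-29, and 0.0411 and 0.0373 for let-7. TATTTAT, the core of AU-rich elements, was in the last 300 bases of 11.1% of long and 9.66% of middle-length intervals. TGTANATA, the motif of Pumilio proteins, was there in 11.9% and 9.14%. These motifs were searched on the transcript strand only, and a match is a run of letters, not a site in use.

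The long intervals ran from 3000 to 97701 bases, with a median of 4167 and quartiles at 3470 and 5411. At least 90% of the bases of 3374 of them lay in an annotated 3′ UTR of the named gene. No read fell on 703 of the 4441 in any labeled library. A read in each labeled library was found for 3143 long intervals, or 70.8%, and for 13638 middle-length intervals, or 58.9%. The reads counted on 1 interval per gene came to between 506045 and 1842706 per library, the fewest in labeled library 3. To judge a T>C rate, 1000 covered T positions in every library were asked for. This left 690 long intervals from 458 gene names and 2186 middle-length intervals, with medians of 3758 and 3876 covered T positions in the labeled libraries. Of the 690, 514 shared bases with another interval of the tables, so intervals of a gene are not independent, and 645 lay to at least 90% in the gene's annotated 3′ UTR. An exon of another gene on the same strand overlapped 35, and a gene on the other strand 121. Whether the counting used strand is not given in the sources used here. The fibroblast markers Col1a1, Dcn, Pdgfra, Postn and 7 others were all read, with a sum of 40400 to 44040 RPM, reads scaled to 1000000 counted reads of a library, in the labeled libraries. Lists for endothelial cells, macrophages, cardiomyocytes, mural and epicardial cells each summed to at most 213 RPM in every library, and of the cardiomyocyte markers Ryr2 had no read in the labeled libraries.

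All deeply read long intervals were labeled. For each of the 690, the lowest labeled T>C rate exceeded the higher of the unlabeled ones. The same count for intervals of other lengths is not given here, so it is not read as particular to long intervals. By a beta-binomial test across all intervals with a covered T in each library, 2963 of 3070 long intervals, or 96.5%, had a higher rate in labeled CF and 0 a lower one. Among all 19240 intervals tested the share was 94.6%. The long intervals that did not pass had a median of 18 covered T positions in their thinnest library.

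The labeled T>C rate of a typical long interval was close to that of a typical middle-length interval. The median rate of long intervals was 0.0387, 0.0401 and 0.0402 in the 3 labeled libraries. For middle-length intervals it was 0.0382, 0.0394 and 0.0391. Long intervals thus stood higher by 0.000525, 0.000688 and 0.00115, a mean of 0.000787 ± 0.000323 (SD, n = 3), in 3 of 3 libraries. The difference exceeded its own SD over libraries but not the SD of the long median between them, 0.00081. It has no test, since intervals share libraries and in part bases. It was 0.00038 with 300 and 0.00195 with 3000 covered T positions asked for, and 0.000463 from 4000 bases, where it lay under its SD of 0.000505. As a share of reads with a conversion it was 0.000637, also under its SD of 0.00678. With conversions and covered T positions summed over each class it was 0.00462. In the unlabeled libraries the medians were 0.000812 and 0.000425 for long and 0.000586 and 0.000379 for middle-length intervals.

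**Figure D1:**
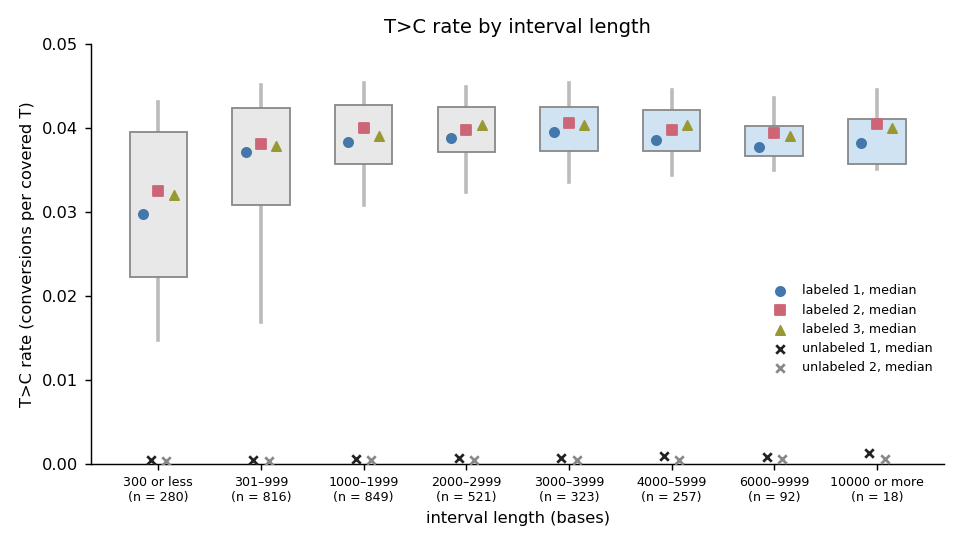
T>C rate (conversions per covered T, linear axis) against interval length for the deeply read intervals. Symbols give the median in each library, boxes the quartiles and bars the 10th and 90th percentile of the mean labeled rate. From 3000 bases on, in blue, the means of the library medians lie between 0.0387 and 0.0402.

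The share of low rates was smaller among long intervals in 3 of 3 labeled libraries. A rate below 0.03, a limit set after the rates were seen, was found in 6.67%, 4.06% and 6.96% of long intervals. Of middle-length intervals, 15.7%, 13.2% and 15.8% were as low in the same libraries. At the upper end the classes lay together: 7.97%, 15.1% and 19.9% of long and 9.01%, 15.1% and 20.5% of middle-length intervals exceeded 0.045. The 10th percentile of the mean labeled rate was 0.0343 for long and 0.0256 for middle-length intervals, and the 90th percentile was 0.0449 and 0.0452.

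**Figure D2:**
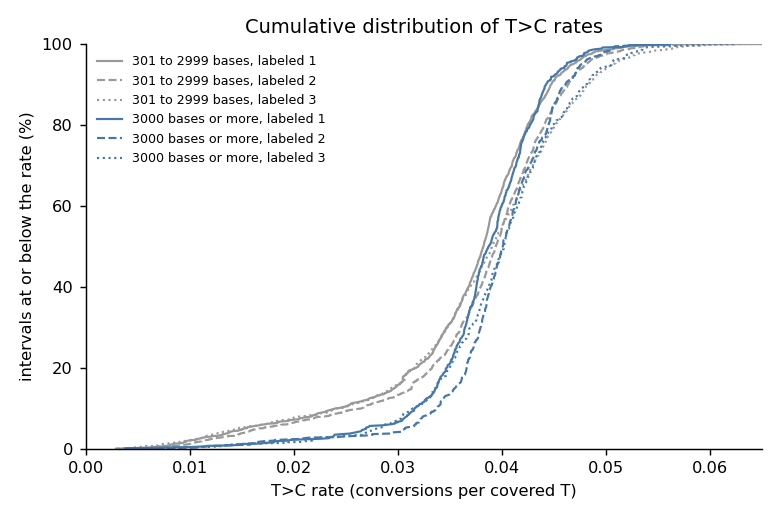
Share of deeply read intervals (percent) at or below a T>C rate (conversions per covered T) in each labeled library, for long and middle-length intervals. Below 0.03 the long curves run at 4.06% to 6.96% and the others at 13.2% to 15.8%. Above 0.045 lie 7.97% to 19.9% of long and 9.01% to 20.5% of the other intervals.

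Within the middle class the low rates belonged mostly to its shorter members. The share below 0.03, averaged over the labeled libraries, was 24.1% ± 2.37 (SD, n = 3) for middle-length intervals under 1000 bases, 10.01% ± 1.31 from 1000 to under 2000 and 8.51% ± 0.966 from 2000 to under 3000. It was 6.71% ± 2.48 from 3000 to under 4000 bases, 4.67% ± 0.778 from 4000 to under 6000 and 6.88% ± 4.39 from 6000 to under 10000. From 2000 bases on, neighbouring length bins differed by less than the larger of their SDs. At the border itself, 43 intervals from 2900 to under 3000 bases had a median rate of 0.0383, and the 32 in the next 100 bases of length had one of 0.0380. The unlabeled medians were 0.000478 and 0.000343 for middle-length intervals under 1000 bases and 0.00128 and 0.000508 at 10000 bases or more, where 18 intervals were read deeply. With the unlabeled rate subtracted, an alternative chosen after seeing the data, long intervals stood higher than middle-length ones by 0.000613. Across the 690 long intervals, the Spearman correlation of the labeled rate with length was -0.07 and with the T content 0.17. These intervals share libraries and in part bases, and the values are descriptions.

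To count single intervals, limma was used to compare the log2 odds of conversion with each library's median over middle-length intervals, over all 3156 deeply read intervals of any length. A higher rate passed an adjusted p of 0.05 in 52 of 690 long intervals, or 7.54%, where 7.76% of all intervals passed. A lower rate passed in 51, or 7.39%, where 18.9% of all intervals and 18.1% of middle-length intervals passed. Within the middle class the lower share fell with length. It was 27.2% under 1000 bases, 14.0% from 1000 to under 2000 and 10.6% from 2000 to under 3000. From 3000 to under 4000 bases it was 8.05%, and from 4000 to under 6000 it was 7.78%. By gene, with the most read long interval of each, 33 of 458 genes were higher and 38, or 8.30%, lower. Of 1446 genes whose most read interval was of middle length, 133 were higher and 297, or 20.5%, lower. The counts of long intervals depended on the libraries: without labeled replicate 1 they were 16 higher and 25 lower, without replicate 2 they were 25 and 42, and without replicate 3 they were 34 and 44. The counts over all 3156 intervals fell too, to 49 and 423, 115 and 534, and 174 and 579. The higher share was 2.32% of long and 1.37% of middle-length intervals without replicate 1, the other order than in the full fit, and the lower share was 3.62% and 13.2%.

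The 8 long intervals with the lowest rates belonged to Spon1, Fbln5, Os9, Ctsb, Herpud2, Adamts2, Lgi2 and Pigk. Spon1, the gene of the secreted adhesion protein spondin 1 (ENSMUSG00000038156.18, chr7:113639200-113642610), had rates of 0.00382, 0.00669 and 0.00680 in the labeled libraries against 0.00150 and 0.000418 in the unlabeled ones. All 3 lay above both unlabeled values and below those of the other 7 genes in the same library. Its log2 odds were lower than the middle-length median by -2.81 (SE 0.147, limma adjusted p = 3.07e-07). Adamts2, whose enzyme trims the N-propeptide of procollagens (chr11:50694857-50698400), had rates of 0.0118, 0.0171 and 0.0149, and 0.000208 and 0.000332 without S4U. Lgi2 (chr5:52690859-52695304) had rates of 0.0142, 0.0182 and 0.0115. The intervals of Spon1, Adamts2 and Lgi2 lay wholly in the gene's annotated 3′ UTR. Their hexamers and 1 of 4 miR-29 matches of Adamts2 are printed above. Pigk, a subunit of the enzyme that attaches GPI anchors, had 0.0236, 0.0125 and 0.0128, with library 1 above the other two, and 65.6% of its reads lay in the first 339 bases.

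In 3 of the other low genes the long interval was read mostly in a shorter part of it. Fbln5, the gene of the elastic fiber protein fibulin-5, had rates of 0.0114, 0.0109 and 0.00811. Of the labeled reads of this interval of 4177 bases, 99.5% lay in its first 805 bases, which the tables list as an interval of their own. Os9, a lectin of the endoplasmic reticulum that handles misfolded proteins, had 0.00755, 0.0106 and 0.0135, and 99.0% of its reads lay in the first 1988 of 3236 bases. Only 51.9% of the interval lay in its own 3′ UTR, and Agap2 lies on the other strand. Ctsb, the lysosomal protease cathepsin B, had 0.010, 0.0117 and 0.0137, and 88.3% of its reads lay in the first 827 of 3594 bases, with Fdft1 on the other strand. The rates of these 3 genes therefore describe mostly the shorter interval. Herpud2 is uncertain as well: its rates were 0.0149, 0.0138 and 0.0132, but only 11.2% of the interval lay in its own 3′ UTR, and an exon of Gm10180 overlapped it on the same strand. All 8 genes passed the limma test, with adjusted p between 2.76e-08 and 0.000155. They were picked by the same rates that the test used, so the passing is no independent evidence.

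Over all 458 genes, 105 had such a contained interval starting at the same base, with a median of 61.2% of the labeled reads in it and quartiles at 21.8% and 81.7%. It held over 90% of the reads in 20 genes and under 10% in 21. With the 103 long intervals of 82 genes left out that had at least 50% of their reads in a contained shorter interval of the gene, an alternative chosen after seeing the data, 51 of 587 long intervals, or 8.69%, were higher and 42, or 7.16%, lower, beside 8.19% and 18.1% of middle-length intervals.

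The 8 long intervals with the highest rates belonged to Eaf1, Ccn4, Fgf2, Mapk9, Rassf8, Inhba, Slc6a6 and Nmt1. Eaf1, a partner of the elongation factor ELL (ENSMUSG00000021890.8, chr14:31228575-31231815), had rates of 0.0561, 0.0483 and 0.0530, against 0.000418 and 0.00107 without S4U. Ccn4, a matricellular protein also called WISP1 (chr15:66791304-66795050), had 0.0496, 0.0537 and 0.0522. Its log2 odds exceeded the middle-length median by 0.43 (SE 0.0622, limma adjusted p = 0.000496), and its 3 labeled values all lay above 0.045. Fgf2, the growth factor bFGF (chr3:37458947-37464255), had 0.0439, 0.0480 and 0.0626, with library 3 highest. An exon of Nudt6 lies on its other strand and one of Gm43439 on the same strand, so its reads are uncertain in source too. Inhba, the activin A subunit, had 0.0474, 0.0490 and 0.0493, and 3 and 0 conversions in the unlabeled libraries.

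The other 4 genes of this group had values in the same range. Mapk9, the stress kinase JNK2, had rates of 0.0472, 0.0453 and 0.0590, and Rassf8 had 0.0468, 0.0497 and 0.0525. Rassf8 had 0 conversions without S4U, which allows rates of up to 0.000658 and 0.00151 there, by a limit of 3 conversions that covers counting error only. Slc6a6, the taurine transporter, had 0.0466, 0.0470 and 0.0517. Nmt1, an N-myristoyltransferase, had 0.0521, 0.0476 and 0.0455 beside unlabeled rates of 0.00492 and 0.00170, and 68.6% of its labeled reads lay in the first 343 bases of the interval. All 8 passed the limma test, with adjusted p of 0.000496 to 0.0336, and these too were picked by the rates tested. The distance to the median was far smaller on this side, 0.32 to 0.45 in log2 odds, than among the lowest genes, -1.35 to -2.81.

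**Figure D3:**
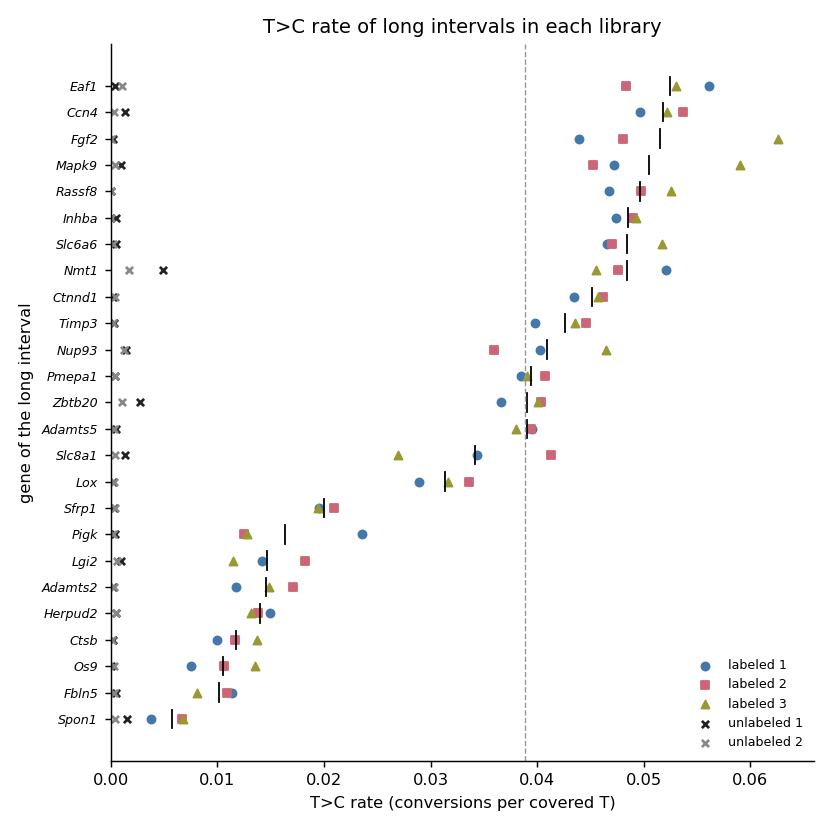
T>C rate (conversions per covered T) in each library for the long intervals with the lowest and highest rates, the most reads and the greatest length. Symbols are libraries, black ticks labeled means, and the dashed line the mean middle-length median of 0.0389. Unlabeled values lie at or below 0.00492.

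Other genes past the test, named after their values were seen, included on the low side Sdf4 (0.0182, a calcium-binding protein of the Golgi), Uggt1 (0.0222, the folding sensor of the endoplasmic reticulum), Erp44 (0.0299, which retains immature proteins) and Wls (0.0304, the carrier of Wnt proteins), each as the mean rate of 3 libraries. Past the test on the high side stood Mbnl1 (0.0472, a splicing regulator), Lims1 (0.0478, PINCH at integrin adhesions), Arih1 (0.0478, a ubiquitin ligase) and Hipk1 (0.0466, a nuclear kinase). They were not tested as a group.

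The most read long intervals had mean labeled rates between 0.0140 (Herpud2) and 0.0426 (Timp3). Timp3, an inhibitor of matrix metalloproteases held in the matrix, had the highest labeled mean, with 3448, 5354 and 5401 RPM in the labeled libraries, and 3129 and 5076 in the unlabeled ones. Its labeled rate was 0.0398, 0.0445 and 0.0436, and its difference from the middle-length median did not pass (0.13 in log2 odds, SE 0.0441, limma adjusted p = 0.0561). Syn3 lies on its other strand. Lox, the lysyl oxidase that crosslinks collagen, had 4696, 3916 and 4183 RPM, more than Timp3 in library 1, and rates of 0.0290, 0.0336 and 0.0316, lower than the median by -0.33 (SE 0.0467, limma adjusted p = 0.00044). Sfrp1, a secreted Wnt antagonist, had 1507 RPM in labeled library 1 and 4325 and 4804 in the others. Its rate was low and even, at 0.0195, 0.0210 and 0.0195. Its log2 odds differed by -0.996 (SE 0.0424, limma adjusted p = 8.46e-08). The reads of Sfrp1 were also lower in unlabeled library 1, at 1571, than in unlabeled library 2, at 4098.

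Pmepa1, Zbtb20 and Adamts5 were also among the most read genes and did not pass on either side. Pmepa1, an inhibitor of TGF-β signaling, had 3086, 2625 and 2788 RPM and rates of 0.0385, 0.0407 and 0.0391. Zbtb20, a transcriptional repressor, had 2735, 1526 and 1804, with rates of 0.0366, 0.0403 and 0.0401. Its interval of 23335 bases was also the longest read deeply, and its unlabeled rates were 0.00273 and 0.00108. Adamts5, the aggrecanase, had rates of 0.0395, 0.0395 and 0.0380. Relative to length, Timp3 held 1314 ± 309 (SD, n = 3) and Zbtb20 86.6 ± 27.1 RPM per kilobase.

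None of the other 3 of the longest intervals passed the test, and 2 of them lay mostly outside the gene's own annotated 3′ UTR. Ctnnd1, the gene of p120 catenin, had 0.0435, 0.0462 and 0.0457 over 15796 bases, of which 46.1% were its own annotated 3′ UTR. Of its labeled reads, 71.9% lay in the first 2111 bases, and exons of Gm28635 and Gm52948 overlapped the interval on the same strand. Slc8a1, the sodium-calcium exchanger, had 0.0343, 0.0413 and 0.0270 over 15586 bases, with the widest spread of these 3 genes. Nup93, a nuclear pore protein, had 0.0402, 0.0359 and 0.0465 over 13405 bases, with 13.1% in its own 3′ UTR and 97.3% of its reads in the first 371 bases.

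The median long interval held more reads than the median middle-length interval in 3 of 3 labeled libraries. Among intervals with a read in every labeled library, the median long interval had 37.4, 32.6 and 31.6 RPM, and the median middle-length interval 26.01, 26.8 and 25.7. Divided by length, the medians were 8.27, 7.43 and 7.19 RPM per kilobase for long and 23.7, 24.2 and 23.1 for middle-length intervals. The ratio was 0.323 ± 0.0233 (SD, n = 3) per kilobase and 1.30 ± 0.124 per interval. Since these libraries are read near transcript ends, division by length lowers the value of long intervals, and the ratio per kilobase is no measure of transcript levels. In bulk libraries fewer cells of a type and less RNA per cell cannot be told apart.

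Reads with and without S4U were compared on 1 interval per gene. With edgeR's quasi-likelihood test on the groups alone, 0 of 1706 long intervals and 0% of all 9806 passed an adjusted p of 0.05. At an unadjusted p of 0.05, 41 long intervals were higher and 53 lower, 5.51% together, against 5.98% of all. DESeq2 called 1 of 2187 long intervals and 14 of 14229 in all. With the replicate number as a block, which the labels do not give as a pairing, edgeR called 193 long intervals, 76 higher and 117 lower, and 1146 of 9806 in all, so the count of 0 and the adjusted p below hold for the fit without it. The median log2 fold change, labeled over unlabeled, was -0.04 for long and 0.02 for middle-length intervals. Ccn4 had 272, 325 and 267 RPM with S4U and 111 and 154 without, groups that do not overlap (log2 1.196, SE 0.282, edgeR adjusted p = 0.543). Inhba had 829, 429 and 415 against 282 and 155 (log2 1.43, SE 0.409, edgeR adjusted p = 0.631). Lgi2 had 315, 227 and 239 against 604 and 531 (log2 -1.05, SE 0.244, edgeR adjusted p = 0.543).

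The share of genes with a long interval ranged from 0% to 60.9% over the gene classes fixed for this comparison. Of 11420 genes read in every labeled library, 1896 or 16.6% had a long interval as their most read one. Among receptors, Smads and regulators of TGF-β and BMP signaling it was 14 of 23, or 60.9%, with a median length of 3476 bases. Among regulators of mRNA decay, translation and microRNA action it was 28 of 53, or 52.8%, and among transcription factors outside the Zfp family 37 of 93, or 39.8%. Receptor tyrosine kinases had 7 of 24, and so did receptors and signaling proteins of the Wnt pathway. At the other end stood ribosomal proteins of the cytosol with 1 of 68, collagen chains with 1 of 25, and subunits of the proteasome and of the respiratory chain with 0 of 37 and 0 of 73. Matrix proteins other than collagens had 7 of 69, or 10.1%. Histone lysine methyltransferases and demethylases had 7 of 44, Rab GTPases 9 of 47, ubiquitin-specific peptidases 8 of 43, Rnf ubiquitin ligases 13 of 57, solute carriers 41 of 179 and Zfp genes 77 of 308.

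**Figure D4:**
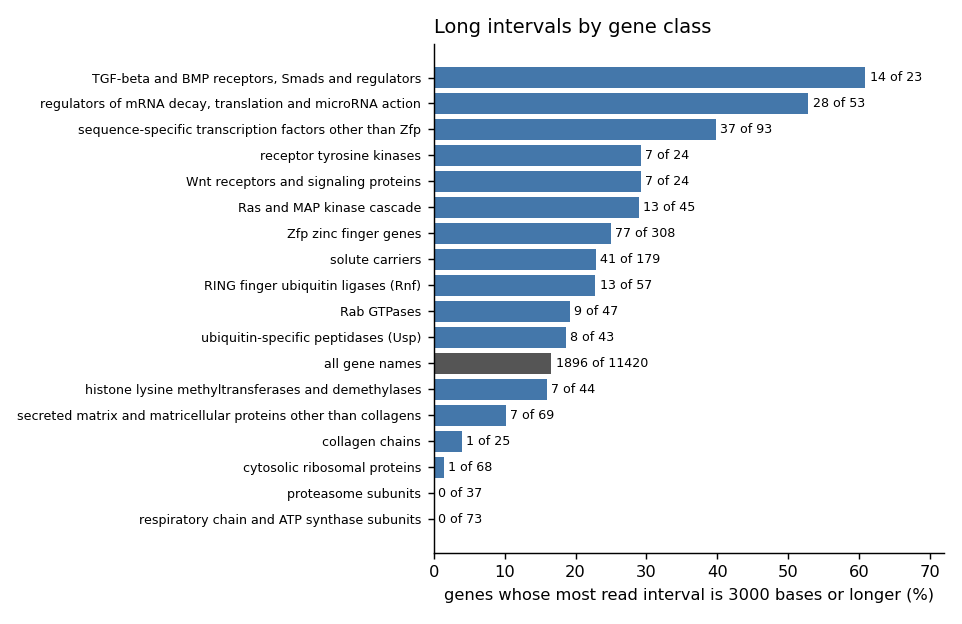
Share of genes (percent, axis from 0) whose most read interval is 3000 bases or longer, by gene class, among genes with a read in every labeled library. Numbers beside the bars are counts; the dark bar gives all genes, 16.6%.

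Most long intervals of the signaling classes did not pass the limma test. All 7 deeply read genes of TGF-β and BMP signaling lay between 0.0352 and 0.0421, median 0.0407, and 0 passed the limma test in either direction, where 33 of all 458 genes were higher and 38 lower. The BMP receptor Bmpr2 had a mean of 0.0395 ± 0.0021 (SD, n = 3), the repressor Ski 0.0365 ± 0.00479 and the shared Smad4 0.0411 ± 0.00402, none past the test. The 3 Wnt genes, the receptor Fzd4 (0.0358 ± 0.00106), the co-receptor Lrp6 (0.0369 ± 0.000913) and the kinase Gsk3b (0.03901 ± 0.0028), did not pass either. Among 4 receptor tyrosine kinases, Pdgfra, the PDGF receptor that marks fibroblasts, had 0.0414 ± 0.0013, the collagen receptor Ddr2 0.0367 ± 0.00276, and the IGF receptor Igf1r 0.0453 ± 0.00332 with adjusted p = 0.0661. The unlabeled rates of Igf1r were high, at 0.00311 and 0.00425. Of the genes of the Ras and MAP kinase cascade, Mapk9 was higher, as given above, and Nras (0.0395 ± 0.00309) and the inhibitor Spred1 (0.0366 ± 0.00311) did not pass.

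Counts of called genes in the classes are small beside the 7.21% higher and 8.30% lower of all 458 genes, and nothing particular to a class is read from them. Of 27 transcription factors outside the Zfp family, Tbx20, a T-box factor of the heart, was higher (0.0454 ± 0.00134, adjusted p = 0.00278). Lower were Tcf4 (0.0344 ± 0.00209), Klf6 (0.0330 ± 0.00243) and Creb1 (0.0316 ± 0.00261), with adjusted p of 0.0200, 0.00970 and 0.0264. Nfib had 0.0388 ± 0.00102. The median of the 27 was 0.0380, beside 0.0397 over all 458 genes. None of 9 regulators of mRNA decay and translation passed, among them Celf2 (0.0401 ± 0.00364), the deadenylase Cnot6 (0.0432 ± 0.00315) and Qk (0.0395 ± 0.0057), whose interval the annotation lists under Qki. None of 6 Zfp genes passed, with Zfp445, Zfp871 and Zfp91 at 0.0371, 0.0376 and 0.0381. Setd7, a lysine methyltransferase, was higher (0.0461 ± 0.0036, adjusted p = 0.0403).

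Single genes stood for the remaining classes. Of 10 solute carriers only Slc6a6 passed, and Slc25a51, the mitochondrial NAD carrier, had 0.0374 ± 0.00161. Rab11b had 0.0435 ± 0.00535 and Rnf150 0.0344 ± 0.00658, with neither past the test. Rps15a, the 1 ribosomal protein gene with a deeply read long interval, was lower at 0.0230 ± 0.00295 (limma adjusted p = 6.8e-05). The 10 ribosomal protein genes of middle length had a median of 0.0213.

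Among matrix genes other than collagens, the 10.1% with a long interval stand beside 16.6% of all genes. Of 6 deeply read long members of the list used, Ccn4 was higher, Fbln5 and Lox were lower, and Timp3, Igfbp5 (0.0323 ± 0.00578) and Slit2 (0.0355 ± 0.00741) did not pass. The list does not hold Spon1 and Adamts2, which were lower, nor Adamts5, which did not pass. Their median was 0.0339. Among 40 such genes of middle length the median was 0.0208, with 30 lower and 3 higher, and among 16 collagen chains of middle length it was 0.0213, with 15 lower. No collagen had a deeply read long interval. With collagens and the other listed matrix genes left out, 252 of 1390 middle-length genes, or 18.1%, and 36 of 452 long genes, or 7.96%, were lower, beside 20.5% and 8.30% with them. Spon1 and Adamts2 remain among these 36.

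Comparing intervals of the same gene holds the gene and the library constant. For 21 genes a long and a separate middle-length interval each had 300 covered T positions in every labeled library. By limma, 0 long intervals were higher and 0 lower at an adjusted p of 0.05, and 3 and 1 at an unadjusted p of 0.05. The fit gave each of the 21 genes the same SE of 0.232 in log2 odds. These p-values thus use 1 spread shared by thinly and deeply read genes, not the gene's own spread between libraries. Among the 3 pairs with 1000 covered T positions, 1 was higher and 1 lower at an adjusted p of 0.05. The long minus shorter rate had medians of 0.0019, 0.00142 and -0.00552 in the 3 libraries, so its sign differed between them. Past the unadjusted threshold, and named after they were seen, were the thyroid hormone receptor Thra (0.0332 ± 0.00439 long, 0.0220 ± 0.00201 shorter), Luc7l2 (0.0433 ± 0.00281 and 0.0302 ± 0.00759) and the chemokine Cxcl12 (0.0410 ± 0.00137 and 0.0286 ± 0.00253), each with an adjusted p of 0.149. Ehbp1 lay on the other side (0.0330 ± 0.0112 and 0.0458 ± 0.00404, adjusted p = 0.149).

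In a further 49 genes, a comparison added after the tables were seen, the part of a long interval beyond a shorter one with the same first base was read by subtraction. The distal part held a median of 39.7% of the reads. Its rate was higher than that of the proximal part in all 3 libraries in 8 genes and lower in all 3 in 11, and the medians over genes were 0.0376 and 0.0386. Only Itgbl1, an integrin beta-like secreted protein, passed. Its distal part, beyond the first 703 of 4385 bases, had rates of 0.0317, 0.0311 and 0.0304. The proximal part had 0.00900, 0.0171 and 0.00891, so the groups do not overlap (log2 odds 1.49, SE 0.202, limma adjusted p = 0.000247). The thinnest of these values rested on 757 covered T positions. At unadjusted p below 0.05 there were 5 genes higher and 4 lower in the distal part, among them Fzd4 (0.0399 ± 0.00294 distal, 0.0274 ± 0.00459 proximal) and Nmt1 (0.0386 ± 0.00257 and 0.0536 ± 0.00496), both with an adjusted p of 0.153.

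**Figure D5:**
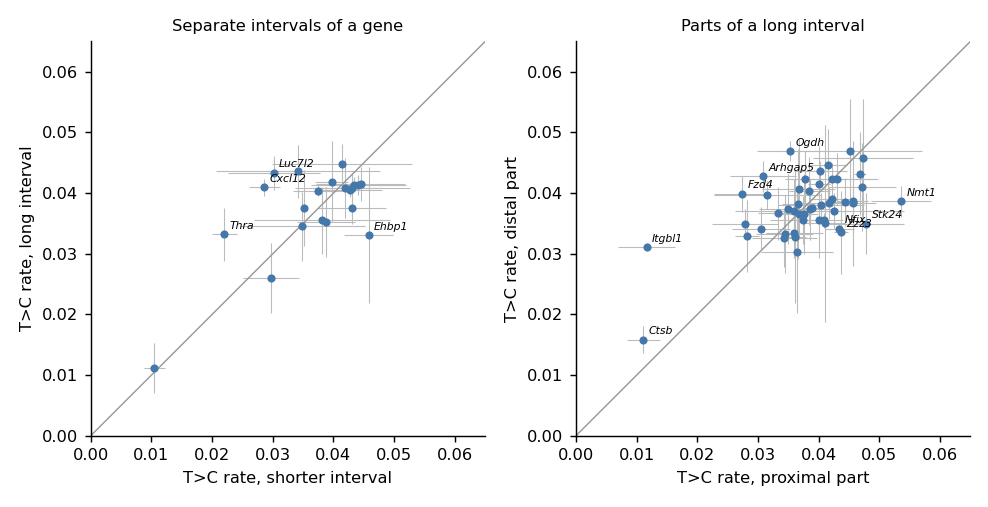
T>C rate (conversions per covered T) of a long against a separate shorter interval of a gene, left, and of the distal against the proximal part of a long interval, right. Points are means and bars SDs over 3 labeled libraries, and the line marks equal rates. Itgbl1 stands apart at 0.0311 distal and 0.0117 proximal.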

How the data were processed

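Libraries were QuantSeq 3′ mRNA-Seq FWD. The authors mapped reads to mm39, removed duplicates by molecular identifier with UMI-tools and counted on 3′ UTR intervals with SLAM-DUNK 0.4.3. The deposited tables hold raw counts of reads, covered T positions and conversions, the T>C rate as a fraction, and CPM. The deposited CPM served only to choose the most read interval of a gene. The authors' T content, a number of T positions, equalled that of GRCm39 in 40380 of 40380 intervals on its chromosomes. Gene IDs, exons and overlaps were read from GENCODE M39, and coordinates are counted from 1.

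Long intervals, gene lists and named genes were chosen with earlier results of these data known. Named were the 8 highest and 8 lowest rates, the 8 most read and the 4 longest of the long intervals with 1000 covered T positions in every library, and up to 3 most read per gene list, without Gm and Rik names; other list members past the test were named after their values were seen, and a few genes are not reported here. Samples were grouped by the labels. RPM values refer to the reads on 1 interval per gene. The beta-binomial test shared 1 overdispersion and used a chi-square, which is approximate for 5 libraries. limma used log2 odds with a pseudocount of 0.5, a trend on covered T positions in the test against the median, and Benjamini-Hochberg adjustment; edgeR used TMM and filterByExpr. The beta-binomial test, limma against the median and edgeR without a block were tested on simulated data with libraries drawn independently. The same-gene and other limma fits, DESeq2 and the replicate block were not. Sampling noise was exceeded between any pair of libraries of a group (chi-square per degree of freedom 2.04 to 16.6). The 2.04 was between labeled libraries 2 and 3. Labeled library 1 gave 16.6 against library 2 and 11.0 against library 3, and the unlabeled libraries gave 16.1. Tools were R 4.3.3, limma 3.58.1, edgeR 4.0.16, DESeq2 1.42.0, Python 3.11.15, scipy 1.17.1 and matplotlib 3.10.9. Alternatives were other coverage limits, lengths, interval sets, pseudocounts, tools and left-out libraries.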

Additional observations from a re-analysis of the deposited data

How the results depend on the processing

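The smaller share of lower calls among long than among middle-length intervals held under all 13 alternatives, at 3.07% to 11.5% against 8.41% to 31.8%. None of these alternatives restricted the middle-length class by length. In the main fit the share was 10.6% from 2000 to under 3000 bases and 8.05% from 3000 to under 4000, so neighbouring lengths differed little. Counts moved with the coverage limit and with the intervals kept. Higher and lower than the median were 30 and 53 of 1725 long intervals at 300 covered T positions (158 and 805 of 8796 in all), 42 and 19 of 166 at 3000 (172 and 251 of 813), 21 and 20 of 176 sharing no base (129 and 300 of 1210), and 28 and 25 of 367 from 4000 bases (245 and 596 of 3156). The higher share of long intervals thus ran from 1.74% at 300 to 25.3% at 3000 covered T positions, beside 1.86% and 21.6% of middle-length intervals. Leaving out a labeled library gave 16 to 34 higher and 25 to 44 lower. The median difference was 0.00038 at 300 and 0.00195 at 3000 covered T positions, 0.000463 from 4000 bases, and 0.00462 with conversions and covered T positions summed over the class. The reads per kilobase ratio was 0.288 with 10 reads, 0.275 without shared bases and 0.261 from 4000 bases, and reversed to 1.30 per interval. Higher with S4U were 690 of 690 at 1000 covered T positions, 1808 of 1860 with 1 interval per gene and 1598 of 1667 from 4000 bases. With 1000 covered T positions, 3 separate pairs were left, 1 higher and 1 lower. The distal comparison then called 0 of 6 genes, without Itgbl1, and 1 to 2 with a library left out.

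Whether equal replicate numbers stand for 1 preparation is not in the labels. Deviations of reads from the group means correlated at 0.847 for number 1 and 0.733 for number 2. With a replicate block, limma called 2966 long intervals higher with S4U, against 2953 without. Counts over all intervals in these fits are not given here, so nothing particular to long intervals is read from them. For reads, edgeR with the replicate block called 193 long intervals, 76 higher and 117 lower, and 1146 of 9806 in all. DESeq2 without the block called 1 of 2187 long intervals and 14 of 14229 in all. The cause was not tested. No table counted a multimapped read, so the alternative without them gave no value. Labeled library 3, with the fewest reads, limits precision.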
